A study of Mus musculus with 3 samples.

Results

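The genes described here are the mouse Zfp genes, those whose symbol is Zfp followed by a number. They were taken from a table of regions marked by acetylation of lysine 27 of histone H3 (H3K27ac) in myeloid-derived suppressor cells (MDSC). A gene was a member when the deposited table listed it with a region whose centre lay within 10000 bp of the gene's start, and the region nearest the start was used. Zfp36, Zfp36l1 and Zfp36l2, whose proteins hold another kind of zinc finger, were left out. This gave 239 genes at 234 regions, of 11995 genes with a region that near and 13443 genes with any region. The choice used symbols and positions, among regions that are in the table because the authors called an interval there in at least 1 of the 2 libraries. Of the members, 207 had a call with vehicle alone, 30 in both libraries and 2 with inhibitor alone, so signal, mostly that of the vehicle library, decided which genes could be members. The remaining 11756 genes, chosen by the same distance rule, serve as the comparison.

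The mark was measured by chromatin immunoprecipitation with sequencing (ChIP-seq). The inhibitor library came from mice given 25 mg/kg of GNE-781, a CBP/EP300 bromodomain inhibitor, by mouth in 2 doses a day for 7 days. The vehicle library came from mice given the vehicle MCT. Both groups were SCID.beige females, a strain without T and B cells and with impaired natural killer cells, injected under the skin at 6 to 8 weeks of age with tumour cells. The labels name these as MDA.MB.231-X1.1, derived from a human breast cancer line, or CT26, a mouse colon carcinoma line, and the titles say TNBC. MDSC were sorted from the digested tumours as CD45+ CD11b+ Ly6C+ Ly6G+/- F4/80- cells, and the number of mice behind a library is not stated in the labels. Each treatment is 1 library, so every value below is a single measurement, no test was run and no replicate error can be given. A pooled input library has no column in the table and was not analysed here.

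Zfp genes form a large gene family of the mouse. Most of their proteins bind DNA through arrays of C2H2 zinc fingers, each finger a short loop folded around a zinc ion. Many also carry a KRAB domain, which binds the corepressor KAP1 (Trim28) and with it the histone methyltransferase SETDB1, and these proteins silence retroelements and other repeats. Genes of the KRAB class lie in large clusters that grew by duplication. H3K27ac marks active promoters and enhancers. CBP and EP300 are the acetyltransferases that lay it down, and their bromodomain, the pocket that GNE-781 fills, binds acetylated lysine.

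The promoters of 7 members are printed first. These genes were picked for their differences in signal or as neighbours of such a gene, and the differences do not depend on the sequences. Zfp869, Zfp868, Zfp963 and Zfp964 are neighbours on chromosome 8, and include the member with the largest difference and one that was less than 2-fold lower with inhibitor. Zfp655 and Zfp143 had strong vehicle signal and were more than 4-fold lower with inhibitor, and Zfp661 was the single member with more signal with inhibitor. Each sequence is the RefSeq promoter window of build GRCm38.p6, 250 bases before to 50 bases after the gene's start, read 5′ to 3′ on the gene's own strand. Capitals mark matches, on either strand, to the letters of motifs bound by NFY, CCAAT, by SP and KLF factors, GGGCGG, by CRE-binding factors, TGACGT, and by ETS factors, CCGGAAG. The windows are chr8:69716853-69717152, minus strand, for Zfp869, chr8:69625499-69625798, minus strand, for Zfp868, chr8:69749913-69750212, minus strand, for Zfp963 and chr8:69654306-69654605, plus strand, for Zfp964. The others are chr5:145231492-145231791, plus strand, for Zfp655, chr7:110061452-110061751, plus strand, for Zfp143 and chr2:127584628-127584927, minus strand, for Zfp661.
Zfp869: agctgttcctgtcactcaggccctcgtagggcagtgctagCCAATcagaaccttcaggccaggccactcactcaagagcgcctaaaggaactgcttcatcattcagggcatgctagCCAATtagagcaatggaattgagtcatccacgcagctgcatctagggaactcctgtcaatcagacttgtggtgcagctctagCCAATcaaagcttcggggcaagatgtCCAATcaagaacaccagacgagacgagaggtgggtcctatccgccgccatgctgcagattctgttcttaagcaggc
Zfp868: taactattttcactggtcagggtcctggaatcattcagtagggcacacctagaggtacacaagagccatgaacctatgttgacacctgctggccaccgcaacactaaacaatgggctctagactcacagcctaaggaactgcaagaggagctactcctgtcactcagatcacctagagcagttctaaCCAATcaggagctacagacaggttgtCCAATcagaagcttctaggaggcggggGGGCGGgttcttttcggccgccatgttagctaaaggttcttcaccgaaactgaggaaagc
Zfp963: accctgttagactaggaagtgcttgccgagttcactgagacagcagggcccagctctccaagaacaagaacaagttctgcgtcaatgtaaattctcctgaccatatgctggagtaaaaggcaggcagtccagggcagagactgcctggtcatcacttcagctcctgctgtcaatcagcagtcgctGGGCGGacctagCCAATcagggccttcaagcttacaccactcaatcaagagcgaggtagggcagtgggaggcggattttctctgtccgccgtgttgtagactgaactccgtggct
Zfp964: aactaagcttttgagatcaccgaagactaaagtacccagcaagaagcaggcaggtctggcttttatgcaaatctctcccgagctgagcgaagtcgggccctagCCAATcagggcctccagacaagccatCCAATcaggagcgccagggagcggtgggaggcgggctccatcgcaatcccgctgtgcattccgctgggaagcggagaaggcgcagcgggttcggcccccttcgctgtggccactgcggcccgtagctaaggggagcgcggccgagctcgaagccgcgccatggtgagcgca
Zfp655: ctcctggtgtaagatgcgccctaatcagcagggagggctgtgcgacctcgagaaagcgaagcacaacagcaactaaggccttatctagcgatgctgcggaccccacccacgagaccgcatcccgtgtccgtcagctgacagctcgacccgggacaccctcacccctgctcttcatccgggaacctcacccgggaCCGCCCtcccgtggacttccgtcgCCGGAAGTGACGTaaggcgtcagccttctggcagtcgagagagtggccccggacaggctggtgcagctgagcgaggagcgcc
Zfp143: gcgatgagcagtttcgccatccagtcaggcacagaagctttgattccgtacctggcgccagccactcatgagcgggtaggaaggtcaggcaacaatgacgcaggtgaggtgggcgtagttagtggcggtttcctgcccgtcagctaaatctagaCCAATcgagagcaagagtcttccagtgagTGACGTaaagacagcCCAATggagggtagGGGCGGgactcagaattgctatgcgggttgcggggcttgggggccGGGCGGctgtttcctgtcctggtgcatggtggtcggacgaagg
Zfp661: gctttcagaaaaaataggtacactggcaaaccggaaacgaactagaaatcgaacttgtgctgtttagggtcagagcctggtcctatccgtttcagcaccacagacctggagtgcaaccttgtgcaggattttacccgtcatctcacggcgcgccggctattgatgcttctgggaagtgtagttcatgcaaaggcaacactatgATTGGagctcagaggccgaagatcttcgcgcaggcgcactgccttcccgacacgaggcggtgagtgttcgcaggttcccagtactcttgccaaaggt

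The Zfp869 window holds 4 NFY matches, the Zfp868 window 2 with 1 SP and KLF match, the Zfp963 window 1 of each, and the Zfp964 window 2 NFY matches. In the Zfp655 window an ETS match is followed directly by a CRE match, with 1 SP and KLF match further upstream. The Zfp143 window holds 2 SP and KLF, 2 NFY and 1 CRE match. These windows lie wholly inside the gene's H3K27ac region except that of Zfp661, of which 194 of 300 bases do. Pairwise identity of the aligned windows of the 4 neighbours ran from 50.6% to 59.8%. No unrelated windows were set beside them, so these values do not speak to a shared origin.

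H3K27ac was lower with inhibitor at 238 of the 239 Zfp genes. Since 237 of them were in the table with a vehicle call, regions strong with vehicle were favoured, and the number with lower signal is a description and no support for a direction. The signal of a region is the deposited fragment pileup averaged over the region. It had a median of 5.06 over the Zfp genes with inhibitor, with quartiles of 4.12 and 6.196, against a median of 17.9 with vehicle, with quartiles of 13.4 and 23.1. The lowest and highest members were 1.5 and 14.0 with inhibitor, against 7.83 and 59.9 with vehicle. The difference used throughout is log2(inhibitor signal + 1) minus log2(vehicle signal + 1), so that -1 is 2-fold lower with inhibitor. Its median over the Zfp genes was -1.74, with quartiles of -1.98 and -1.43. In the plot of both signals the members run along and below the line for 2-fold lower signal, among the other genes. The other genes had median signals of 5.36 with inhibitor and 19.2 with vehicle and the same median difference, -1.74. At least 2-fold lower signal was found at 222 Zfp genes (92.9%), against 95.2% of the other genes, and at least 4-fold lower signal at 54 Zfp genes (22.6%), against 23.8% of the other genes. Shares this near those of genes in general are not a result about the family.

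**Figure D1:**
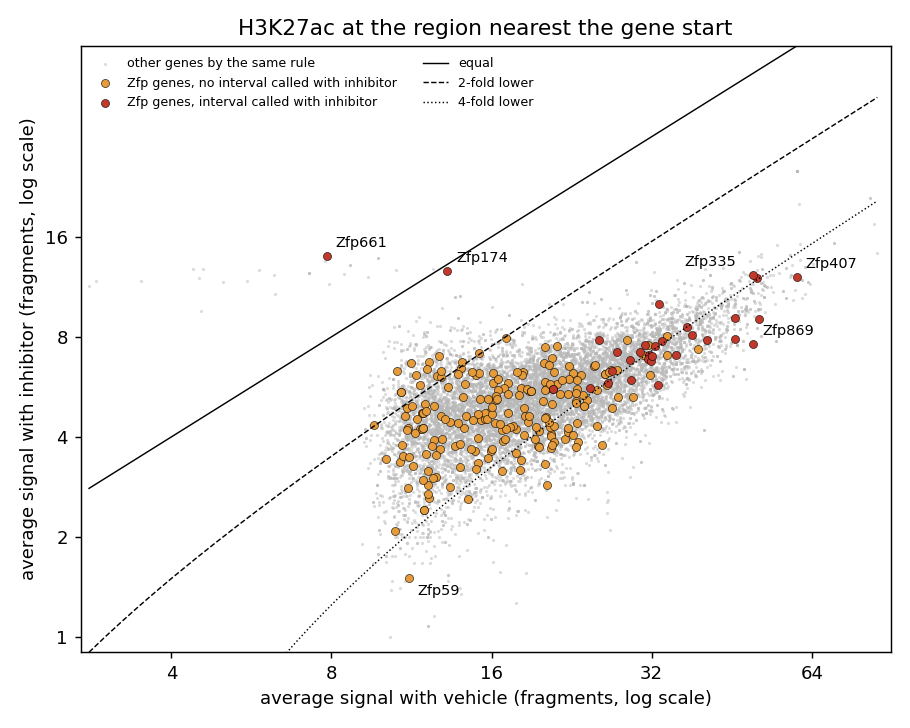
Average H3K27ac signal with inhibitor (vertical, fragments, log scale) against vehicle (horizontal, fragments, log scale) at the region nearest each gene's start, for 239 Zfp genes (large points) and 11756 other genes (grey, without those at 0). Zfp661 alone among the Zfp genes lies above the line of equal signal, and the 32 red points, whose regions had an interval called with inhibitor, lie mostly at high vehicle signal.

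Whether the 2 libraries are on one scale is not known, since Drosophila chromatin was added for spike-in normalization and no source used here says whether the deposited values include it. Over all 22399 regions the median difference was -1.61. Relative to that shift the Zfp genes had a median of -0.14 and the other genes -0.13. None of the 239 members was then 2-fold lower, and the share of the other genes is not given for this count. Marker genes were looked up among the same regions, a weak check, since 11995 genes had a region that near a start. Of 10 genes of the sorting gate or of myeloid cells, 9 had a region near the start, among them Ptprc, Itgam, S100a8, S100a9 and Spi1. The exception was Ly6c1. Among markers of other cells, Cd3e, uninformative in a strain without T cells, and Ncr1, Epcam, Col1a1 and Pecam1 had none. Emr1, which encodes the F4/80 antigen used to gate macrophages out, had one with a signal of 3.70 with inhibitor and 12.8 with vehicle.

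The stronger a Zfp region was with vehicle, the larger was its difference. With the members ranked by vehicle signal and divided into 4 equal sets, the median difference was -1.29 in the weakest set, then -1.54, -1.82 and -2.01 in the strongest. Median signal with inhibitor spanned less over the same sets, as 4.25, 4.59, 5.06 and 6.55, against 11.9, 15.8, 20.3 and 28.9 with vehicle. Over the 234 member regions the rank correlation of the vehicle signal with the inhibitor signal was 0.52, and with the difference -0.73. These are descriptions over regions of the same 2 libraries, and the vehicle signal is part of the difference. Longer regions also had larger differences, with medians of -1.38 in the shortest of 4 sets (340 to 1020 bp) and -1.92 in the longest (1734 to 4165 bp).

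Set against other genes of like vehicle signal, the Zfp genes stood close to them. All 11995 genes were put in 10 classes of vehicle signal. The median of the Zfp genes minus that of the other genes in the class ran from -0.18 to 0.02, and was below 0 in 7 of 10 classes. The widest gap lay in the class from 19.2 to 21.4 fragments. Its 32 Zfp genes had a median difference of -1.93, against -1.75 for 1167 other genes, and a median inhibitor signal of 4.56, against 5.33. Over all classes 131 Zfp genes were below and 108 above the median of their class, with a median deviation of -0.03. With no replicate, gaps of this size cannot be set against an error.

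**Figure D2:**
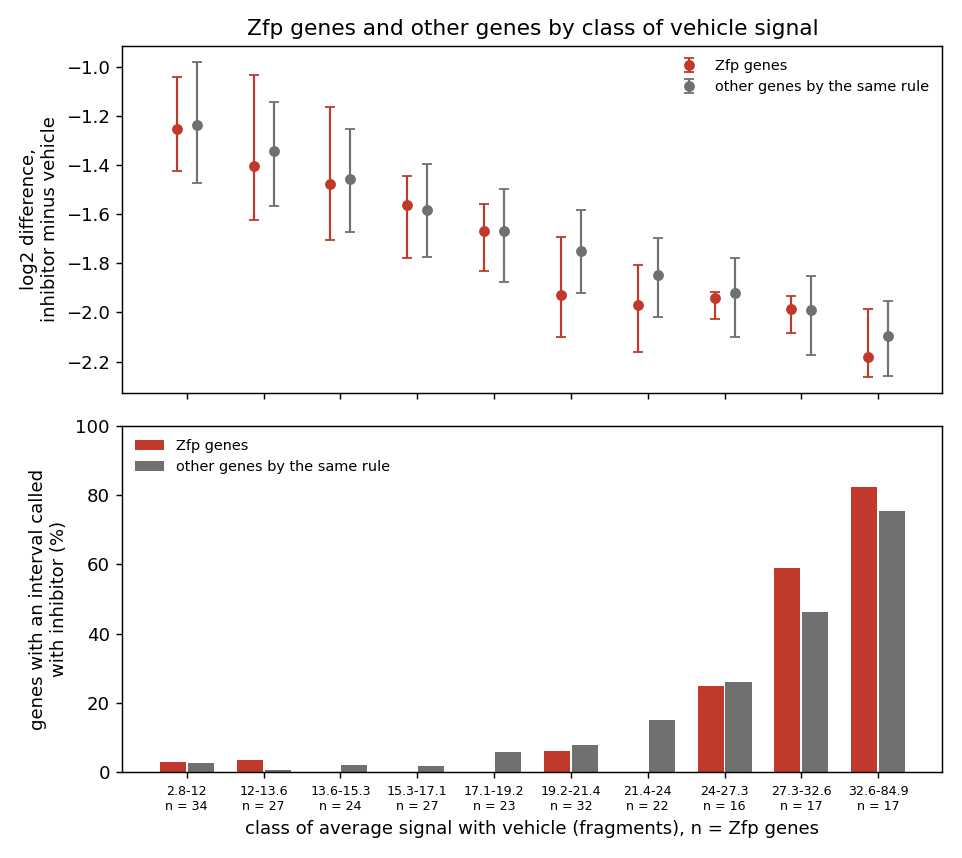
Upper panel, the median log2 difference (points) and quartiles (bars) of Zfp genes and of other genes in 10 classes of vehicle signal (horizontal, fragments); lower panel, the percentage of genes in each class with an interval called in the inhibitor library. Both groups move together from about -1.25 to -2.18 for Zfp genes and from -1.24 to -2.10 for other genes, and intervals called with inhibitor are mostly in the 3 strongest classes.

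The authors' interval calls give a second view of the same libraries. An interval was called with vehicle at 237 Zfp genes, and with inhibitor at 32 (13.4%), against 18.5% of the other genes. Of those 32, 28 were in the strongest of the 4 sets by vehicle signal, where they made up 46.7% of the members. The other sets, from the weakest up, held 2, 0 and 2. Within the 10 classes of vehicle signal, neither group had the higher share throughout. In the strongest class it was 82.4% of 17 Zfp genes and 75.3% of other genes, and in the next 58.8% of 17 and 46.2%. In the class from 21.4 to 24.0 fragments it was 0% of 22 Zfp genes and 15.2% of other genes. The 32 had median signals of 7.53 with inhibitor and 32.04 with vehicle, and the 207 without an interval had 4.72 and 16.7. The median difference was -1.99 at the 32 and -1.68 at the 207. Some strong regions had no interval with inhibitor. Zfp367 had a signal of 7.38 with inhibitor and 39.2 with vehicle, and Zfp410 had 8.02 with inhibitor and 34.1 with vehicle; both were picked out after their values were seen.

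The members with the most vehicle signal were Zfp407, Zfp518a, Zfp622, Zfp869, Zfp335 and Zfp143, and each kept an interval with inhibitor. All lay in the strongest of the 10 classes of vehicle signal, where 75.3% of other genes had such an interval. Zfp407 had a signal of 12.1 with inhibitor, against 59.9 with vehicle, a difference of -2.22. Zfp518a had 9.04 with inhibitor, against 50.8 with vehicle, a difference of -2.37. For Zfp335, a cofactor of histone methyltransferase complexes needed in neural progenitors and in T cells, the signals were 12.3 with inhibitor and 49.6 with vehicle, a difference of -1.93. Zfp622, the relative of a yeast factor that matures the large ribosomal subunit, had 12.0 with inhibitor, against 50.5 with vehicle, a difference of -1.99. Even the highest of these inhibitor signals was below the median of all Zfp genes with vehicle.

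Among members with mean signal at or above the family's median, the differences were largest at Zfp869, Zfp236, Zfp524, Zfp655, Zfp518a, Zfp644, Zfp830 and Zfp738. Zfp869 had a signal of 7.63 with inhibitor, against 49.7 with vehicle, a difference of -2.55, the lowest of all members. Zfp236 had 3.79 with inhibitor, against 25.8 with vehicle (-2.48). A further region 970 bp into Zfp236 had 7.23 with inhibitor, against 26.5 with vehicle, a difference of -1.74. The size of the difference at Zfp236 thus depends on the region chosen. Zfp524 had 2.86 with inhibitor, against 20.3 with vehicle (-2.47). These genes ended at quite different levels with inhibitor. Zfp655, whose promoter is printed above, had 7.88 with inhibitor, against 45.9 with vehicle (-2.40). Zfp644, a partner of the histone H3 lysine methyltransferases Ehmt1 and Ehmt2, had 3.73 with inhibitor, against 23.1 with vehicle (-2.35). Zfp830 and Zfp738 had differences of -2.33 and -2.32. Among weaker members the lowest inhibitor signal was at Zfp59, with 1.5 against 11.2 with vehicle, a difference of -2.28.

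At the other end were Zfp661 and Zfp174, the 2 members whose region is in the table through an inhibitor call alone, which favours regions with little vehicle signal. At Zfp661 the signal was 14.0 with inhibitor, against 7.83 with vehicle, a difference of 0.76. It was the 1 member of 239 with more signal with inhibitor, against 0.213% of the other genes (25 of 11756). At Zfp174, which encodes a repressor with a SCAN domain, the signals were 12.6 with inhibitor and 13.2 with vehicle, a difference of -0.06. Both regions are short, 404 bp at Zfp661 and 340 bp at Zfp174, the shortest of all members. Zfp661 has a further region 2813 bp upstream of its start, which had 6.89 with inhibitor and 19.0 with vehicle, a difference of -1.34. The choice of region thus sets the sign at this gene. The next smallest difference among members at or above the median signal was at Zfp12, with 7.93 with inhibitor, against 17.1 with vehicle, a difference of -1.02. Zfp768 (-1.33), Zfp709 (-1.38), Zfp386 (-1.39), Zfp296 (-1.41), Zfp740 (-1.42) and Zfp568 (-1.43) completed this end.

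Members with known roles were grouped in 3 lists. Of 8 genes that act on imprinted genes or retroelements, 4 met the distance rule. Each of the 4 was 2-fold lower or more with inhibitor, as were 95.2% of the genes outside the family. Zfp445, which with Zfp57 keeps imprints through early development, had 5.26 with inhibitor, against 27.6 with vehicle, a difference of -2.19. Zfp809, which silences retroviruses in embryonic stem cells, had 6.58 with inhibitor, against 25.0 with vehicle (-1.78). Zfp961 had 3.96 with inhibitor, against 17.0 with vehicle (-1.86). Zfp568, a repressor of a placental transcript of Igf2, had the smallest difference, with 6.16 with inhibitor, against 18.3 with vehicle (-1.43). Zfp57, Zfp932 and Zfp37 had no region that met the rule, and the nearest region of Zfp708 lay 10419 bp upstream. None of the 4 had an interval with inhibitor, against 18.5% of the genes outside the family.

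Of 12 members that act in RNA metabolism, on the ribosome or in ubiquitin and SUMO conjugation, 11 met the distance rule. Each of the 11 was 2-fold lower or more with inhibitor, as were 95.2% of the genes outside the family. The lowest was Zfp830, with a signal of 5.72 with inhibitor, against 32.9 with vehicle, a difference of -2.33. Zfp207, a spindle assembly protein that binds Bub3, had 5.92 with inhibitor, against 29.2 with vehicle (-2.13). Zfp91, a ubiquitin ligase, had 7.5 with inhibitor, against 32.5 with vehicle (-1.98). These 3 and Zfp622 and Zfp451, a SUMO ligase with a difference of -1.73, had an interval with inhibitor, 5 of the 11, where 18.5% of genes outside the family had one. Their vehicle signals lay between 20.9 and 50.5. Zfp106, an RNA-binding protein, had 7.05 with inhibitor, against 30.9 with vehicle (-1.99). Zfp598, the ubiquitin ligase that marks collided ribosomes, had 5.61 with inhibitor, against 18.1 with vehicle (-1.53). The others were Zfp277 (-1.60), Zfp326 (-1.42), which links transcript elongation to splicing, Zfp385a (-1.29) and Zfp346 (-1.17), a protein that binds double-stranded RNA.

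Of 31 transcription factors and cofactors, 25 had a region. Of these, 23 (92.0%) were at least 2-fold lower with inhibitor, against 95.2% of the genes outside the family. The list's median difference was -1.86, with median signals of 5.75 with inhibitor and 20.5 with vehicle. Zfp143, an activator of small nuclear RNA and many other promoters, had 9.13 with inhibitor, against 46.0 with vehicle, a difference of -2.21. Zfp281, which binds GC-rich sequence in embryonic stem cells, had 5.27 with inhibitor, against 29.5 with vehicle (-2.28). Zfp341, whose human counterpart activates STAT3, had 4.14 with inhibitor, against 22.3 with vehicle (-2.18). Other members of the list with strong vehicle signal had differences from -2.05 to -1.93, Zfp263, Zfp131, Zfp410, Zfp516 and Zfp335. Zfp410, known in human and mouse red cell precursors as an activator of Chd4, had -1.96, and Chd4 itself had 6.17 with inhibitor, against 22.6 with vehicle, a difference of -1.72.

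Among the remaining factors in that list, differences of -2.03 at Zfp148, -1.93 at Zfp64, -1.91 at Zfp24, listed in the table as Zfp191, -1.86 at Zfp384 and -1.84 at Zfp292 lay below the family's median. Zfp703 (-1.68), Zfp217 (-1.68), Zfp608 (-1.59), Zfp653 (-1.51) and Zfp296 (-1.41) lay above it. Zfp592 and Zfp687, partners in one chromatin complex, had -1.33 and -1.31. The Zfp592 region used lay 669 bp into the gene, and a further one 809 bp upstream of the start had a difference of -1.81. The Zfp687 region lay 4752 bp into the gene. The smallest differences were at Zfp503 (-1.17), Zfp746 (-1.05), the parkin substrate PARIS, Zfp609 (-0.92) and Zfp750 (-0.81), a regulator of epidermal differentiation. Zfp750 had 6.14 with inhibitor, against 11.5 with vehicle, among the weakest vehicle signals of the list. Zfp423, Zfp521, Zfp318, Zfp462, Zfp683 and Zfp42 had no region that met the rule.

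**Figure D3:**
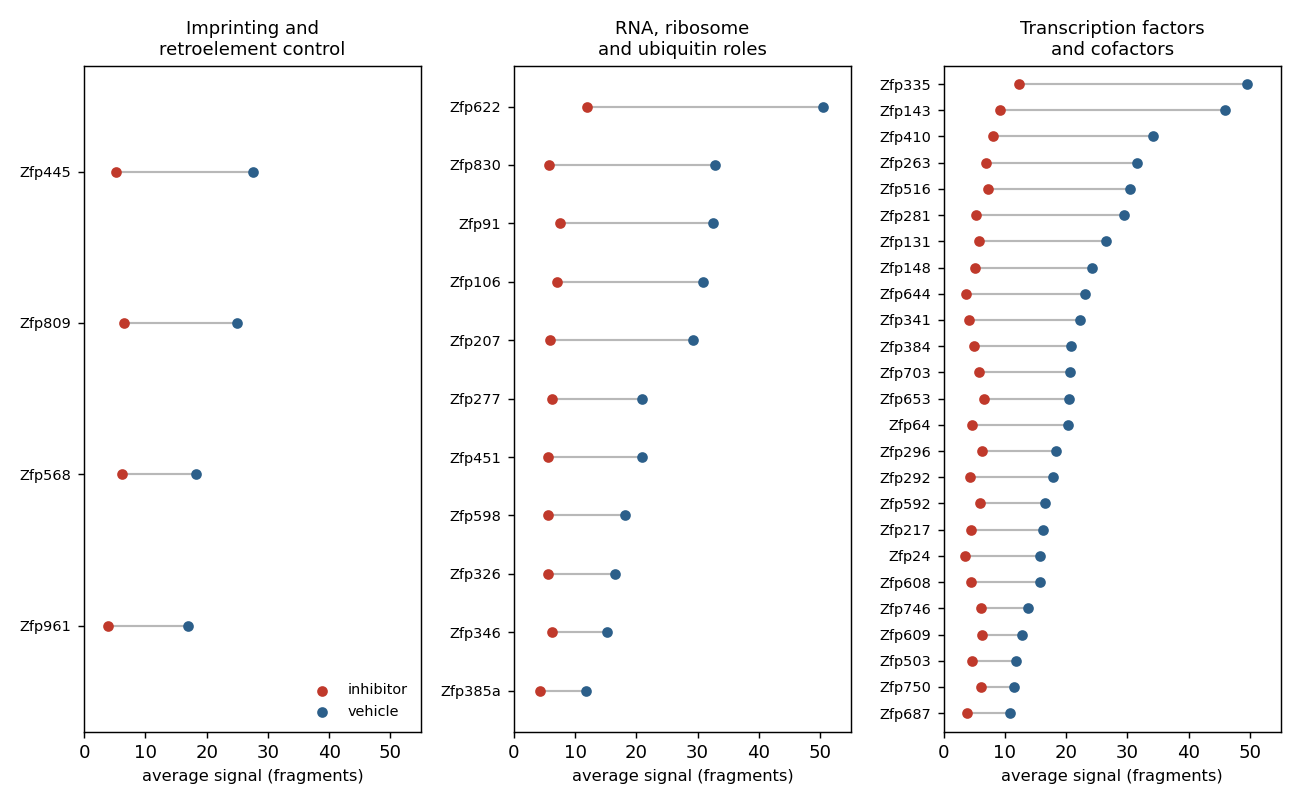
Average H3K27ac signal (fragments, horizontal) with inhibitor (red) and vehicle (blue) at the region nearest the start of the 40 members in the 3 role lists, ordered by vehicle signal from top to bottom. The inhibitor signals lie between 3.45 and 12.3, while the vehicle signals spread from 10.8 to 50.5.

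Many Zfp genes lie close together in the genome, and the range of differences within a cluster varied widely between clusters. With members at most 500 kb apart joined, 130 of the 239 fell in 21 clusters of at least 3, 12 lay in pairs and 97 were single. Chromosome 7 held 64 members, chromosome 13 held 27, chromosome 17 held 24 and chromosome 8 held 19. The 130 clustered members had median signals of 4.94 with inhibitor and 16.8 with vehicle and a median difference of -1.70. The 97 single members had 5.27 with inhibitor and 19.6 with vehicle and a median difference of -1.78. Cluster medians ran from -2.05 to -1.17, and the range within a cluster from 0.03 to 2.05 on the log2 scale. The narrowest was that of Zfp251, Zfp7 and Zfp647 on chromosome 15, with signals from 4.27 to 4.72 with inhibitor and from 11.1 to 11.9 with vehicle, where Zfp251 and Zfp7 share a region. Zfp397, Zfp35 and Zfp191 on chromosome 18 ranged over 0.19.

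The largest cluster, chr13:67060436-67814491, held 18 members, and 15 of their regions had no CpG island, a stretch rich in CG dinucleotides found at most promoters. Its median signals were 4.97 with inhibitor and 15.5 with vehicle, with a median difference of -1.73. Zfp738 had 3.85 with inhibitor, against 23.2 with vehicle (-2.32), and Zfp759 had 7.00 with inhibitor, against 12.7 with vehicle (-0.78). The cluster on chr7:29767790-30122651 held 13 members, of which 8 were at least 2-fold lower, against 95.2% of the genes outside the family. The 13 lay at 12 regions, with 1 shared by Zfp260 and Zfp566 (-0.87). The cluster's median vehicle signal of 12.8 was below that of the family. In the weakest of the 4 sets by vehicle signal, 45 of 60 Zfp genes were at least 2-fold lower. The cluster's median difference was -1.43, from -2.12 at Zfp74 to -0.66 at Zfp82. The third cluster of at least 10 members, chr7:127232320-127877606, had a CpG island in every member's region. Its 10 members, at 9 regions, were all at least 2-fold lower, as were 95.2% of the genes outside the family. The 10 lay between -1.95 at Zfp689 and -1.33 at Zfp768.

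The cluster of the printed neighbours, chr8:69208706-69775308, held 6 members and the widest range but one of any cluster, 1.78 on the log2 scale. Zfp869 had 7.63 with inhibitor, against 49.7 with vehicle. Zfp868 had 8.12 with inhibitor, against 38.1 with vehicle (-2.10), and Zfp963 had 7.08 with inhibitor, against 34.3 with vehicle (-2.13). Zfp866 had 6.27 with inhibitor, against 26.6 with vehicle (-1.93), and Zfp930 had 4.92 with inhibitor, against 16 with vehicle (-1.52). Zfp964, between Zfp868 and Zfp869, had 6.70 with inhibitor, against 12.2 with vehicle (-0.78). With inhibitor the 6 lay between 4.92 and 8.12, while with vehicle they ran from 12.2 to 49.7. The one wider range was in the cluster of Zfp263, Zfp174 and Zfp597 on chromosome 16, where Zfp174 is the member with almost equal signals; Zfp263 had -2.05 and Zfp597 had -2.11.

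**Figure D4:**
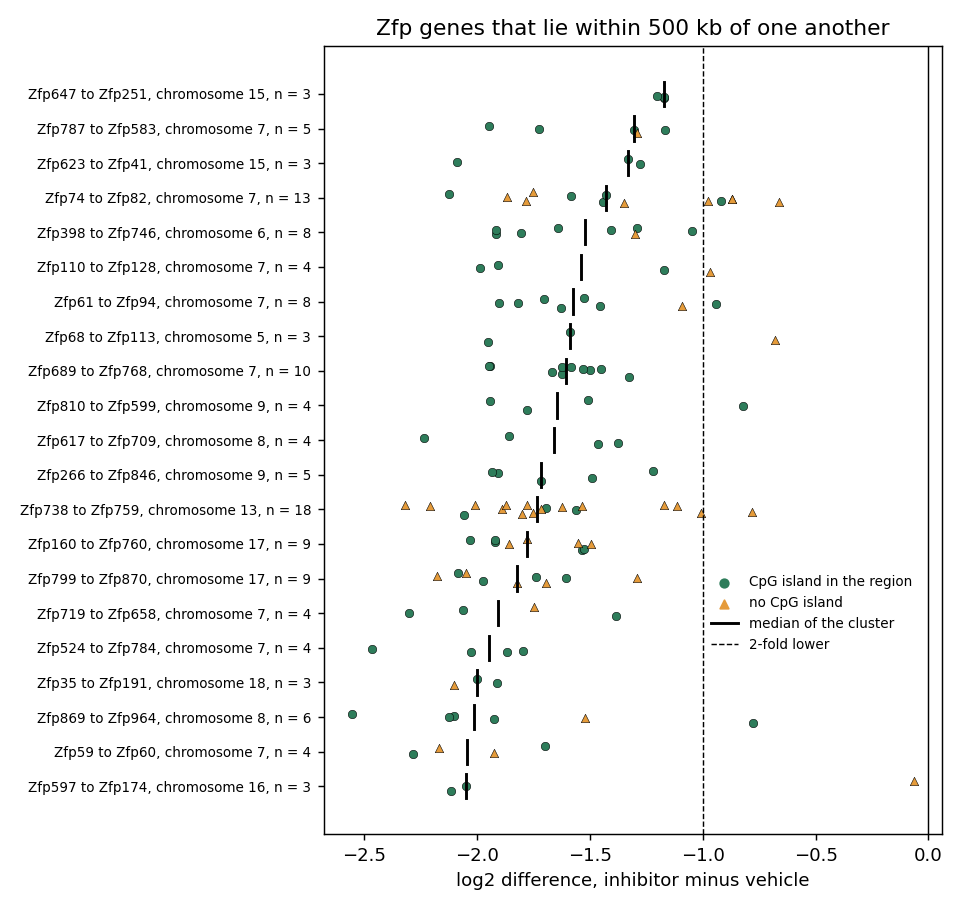
Log2 difference, inhibitor minus vehicle (horizontal), of each member (points) in the 21 clusters of at least 3 Zfp genes, with the cluster's median as a bar. Circles mark regions with a CpG island and triangles those without; clusters are named by their lowest and highest member and ordered by median from -1.17 at the top to -2.05 at the bottom.

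The regions of Zfp genes had a median length of 1275 bp, against 1613 bp for other genes. A CpG island lay in the region of 173 members (72.4%), against 79.3% of other genes, and 123 members (51.5%) were the only gene listed for their region, against 35.6%. The centre of the region lay within 1 kb of the start at 218 members and past the start in 169 of all 239, whose median distance was 222 bp. Members with a CpG island had median signals of 5.38 with inhibitor and 20.2 with vehicle and a median difference of -1.81. Those without had 4.42 with inhibitor and 14.1 with vehicle and a median difference of -1.53. Among other genes the split was alike, with -1.78 and -1.57. An interval with inhibitor was found at 30 of the 173 members with an island (17.3%), against 21.0% of other genes with one, and at 2 of the 66 members without (3.03%), against 8.89% of other genes without.

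At the edge of the distance rule, the last members inside were Zfp541, 9801 bp upstream of its start (-1.68), Zfp217, 9212 bp into the gene (-1.68), and Zfp251, whose region 8045 bp upstream (-1.17) is also the nearest region of Zfp7. The first outside were Zfp580 at 10051 bp (-1.90), Zfp783 at 10400 bp (-1.29) and Zfp708 at 10419 bp upstream (-2.01). In all, 14 Zfp genes were listed only with regions beyond the limit. Zfp genes with no listed region at all, such as Zfp57, are not counted among these. The 21 members whose region centre lay beyond 1 kb had median signals of 4.54 with inhibitor and 12.4 with vehicle and a median difference of -1.59.

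Sequence features of the promoter windows were compared for 199 members and 8935 other genes that the promoter table holds. The members' windows had a median GC content of 55.7%, against 60.7% for other genes with a region and 52.7% for all 27025 genes of the table. An NFY match was present in 49.7% of members, against 38.7% of other genes with a region and 37.8% of all genes. An ETS match was present in 24.6% of members, against 20.04% of other genes and 9.08% of all. An SP and KLF match was present in 47.2% of members, against 64.1% of other genes and 35.6% of all. For CRE the shares were 14.1% of members, 12.8% of other genes and 7.44% of all. Matches to NRF1, searched as GCGCATGC, were in 7.04% of members, 5.38% of other genes and 2.78% of all, and to YY1, searched as AAGATGGC, in 7.54% of members, 5.06% of other genes and 2.86% of all. A palindromic match counts on both strands, and a match describes letters in the window, not binding.

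For each motif the members with a match were set beside those without. With an ETS match the median difference was -1.86 and without it -1.72, at median signals of 5.02 with inhibitor and 20.2 with vehicle, and of 5.00 with inhibitor and 17.3 with vehicle. With a CRE match the median was -1.92 and without it -1.71, and again the members with the match had more vehicle signal, 20.8 against 17.2. For NFY the medians were -1.78 with the match and -1.70 without, for SP and KLF -1.80 and -1.74, for YY1 -1.78 and -1.74, and for NRF1 -1.61 and -1.77. In 3 equal sets ranked by GC content the medians were -1.76, -1.72 and -1.75 from low to high GC.

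Zfp genes had few regions each. The median was 1 region per member, against 2 per other gene. A single region was listed for 61.5% of members, against 43.4% of other genes, and at least 3 regions for 12.1%, against 30.1%. Zfp608 had the most, 15. Within 10000 bp of the start, 59 members had 73 further regions. These had median signals of 4.72 with inhibitor and 13.9 with vehicle and a median difference of -1.56. The regions nearest the start of the same genes had 5.54 with inhibitor and 20.03 with vehicle and -1.81. The further region had the smaller difference in 47 of 73 cases. At Zfp608 it had the larger one: 3230 bp into the gene the signals were 6.09 with inhibitor and 32.6 with vehicle, a difference of -2.25, against -1.59 at the region nearest the start. At Zfp503 a region 5798 bp upstream had 9 with inhibitor and 11.3 with vehicle, a difference of -0.30.

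Genes of the KAP1 pathway, through which KRAB proteins silence chromatin, were lower with inhibitor by about as much as the family. Of 22 listed genes 20 met the distance rule, each 2-fold lower or more with inhibitor, as were 95.2% of the genes outside the Zfp family. These 20 had median signals of 4.82 with inhibitor and 19.1 with vehicle and a median difference of -1.71. Trim28, the corepressor KAP1, had 5.92 with inhibitor, against 18.4 with vehicle (-1.49). Setdb1, its methyltransferase, had 3.67 with inhibitor, against 13.5 with vehicle (-1.64), and Atf7ip, a partner of SETDB1, had 8.11 with inhibitor, against 19.8 with vehicle (-1.19). The lowest was Trim24, a relative of Trim28, with 2.42 with inhibitor, against 16.1 with vehicle (-2.32), followed by the remodeller Smarcad1 at -2.25. Cbx3 and Cbx5 had no region that met the rule.

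Genes whose symbols start with Zbtb, Zscan or Zkscan, most of them zinc finger genes, were close to the Zfp genes. They were taken by symbol alone, so genes such as Zbtb8os and Zbtbd6 are counted without a check for zinc fingers. The 52 Zbtb, Zscan and Zkscan genes had median signals of 5.39 with inhibitor and 18.1 with vehicle and a median difference of -1.75. Of these, 46 (88.5%) were at least 2-fold lower, against 95.2% of all genes outside the Zfp family. By symbol the medians were -1.81 for 35 Zbtb genes, -1.46 for 9 Zscan genes and -1.84 for 8 Zkscan genes. Zbtb1 had the largest difference, with 4.77 with inhibitor, against 29.9 with vehicle (-2.42). Zbtb8b was the 1 gene of the 52 with more signal with inhibitor, 11.5 against 7.92 with vehicle, a difference of 0.49. Of all genes outside the Zfp family 0.213% had more signal with inhibitor. Zbtb8b was also the 1 gene of the 52 without a vehicle call. Its region was included through an inhibitor call alone, which favours regions with little vehicle signal.

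A pair of properties of the values bears on all of these results. In the inhibitor library the average times the number of 32 bp bins, or 1 bin fewer, was whole at 44.9% of member regions, against 95.3% in the vehicle library, within the table's rounding of 0.0005 times the number of bins. A wider tolerance would raise both shares, and no region of the table had an average between 0 and 1. An average taken over filled bins alone overstates weak signal, and whether the deposited one is of that kind is not stated in the sources used here. A region shared by 2 genes gives both the same value, and 10 members share 5 regions with another member.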

How the data were processed

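H3K27ac ChIP-seq was compared between 1 inhibitor and 1 vehicle library of sorted MDSC. Chromatin was fixed with 1% formaldehyde, with Drosophila chromatin added for spike-in normalization, per the labels' protocols. BWA, SICER and the builds hg19 and dm3 are named in the submitters' processing notes, without versions. The deposited table gives signal, the authors' fragment pileup, as an average and a peak per region, and whether an interval was called. How the average treats empty bins is not given in the sources used here, and the number of fragments is not known, so depth is unknown and no interval is given. The regions are in mouse coordinates. With GRCm38, 87.6% of 9134 genes had a start within 50 bp of the place that the region centre and its distance give, and GRCm38 is named on that ground. Of the members, 234 have current symbols and 5 older ones.

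Log2 differences used a pseudocount of 1, in Python 3.11.15 with pandas 2.3.3 and numpy 2.4.6. Promoter windows were aligned with Biopython 1.88 and figures drawn with matplotlib 3.10.9. The choice of regions and the differences were tested on simulated data. No test was run on the study's values. The members and lists were chosen with earlier results of these data known. The genes named were the 8 lowest and 8 highest differences at or above the median mean signal (11.5), the 6 strongest with vehicle, the ends of each class and cluster, and the role lists, 88 in all. Other genes named were picked after their values were seen. Of the listed cell type markers, 1 is not reported here. Protein classes (KRAB box, number of fingers) were planned and not used here, since protein sequences were not at hand. Alternatives were peak signal, other pseudocounts, recentring, the strongest region, a limit of 1000 bp, and filters on signal, sharing and calls. The 4-fold count and the joint filter on calls and distance were added after seeing the data.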

Additional observations from a re-analysis of the deposited data

How the results depend on the processing

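The median difference of the Zfp genes stayed below 0 under every alternative, and stood within 0.04 of that of the other genes. For the Zfp genes and the other genes it was -1.86 and -1.84 with peak signal, -1.94 and -1.92 with no pseudocount, -0.14 and -0.13 after recentring on the median of all regions, -1.75 and -1.77 at the strongest region within 10000 bp, -1.77 and -1.77 with a limit of 1000 bp, -1.86 and -1.82 at or above the median signal, and -1.75 and -1.75 where no other gene shares the region. At regions called with vehicle it was -1.75 for the Zfp genes, and with the 1000 bp limit as well, an alternative chosen after seeing the data, -1.77 and -1.77. The count of members at least 2-fold lower was 0 after recentring and 117 of the 123 that share no region (95.1%). In the main setting it was 95.2% of the other genes, and their shares at these alternatives are not given here. The count at least 4-fold lower was 101 with peak signal, 110 with no pseudocount, 0 after recentring and 30 of the 123. As shares this was 42.3%, 46.0%, 0% and 24.4% of the members, against 38.6%, 42.2%, 0.0085% and 25.0% of the other genes. Of the 123, 14 had an interval with inhibitor (11.4%), against 17.4% of other genes that share no region. Recentring turned 36 named genes above 0. Of these 10 were less than 2-fold lower before, and came to between 0.64 and 1.54. The other 26 were Zfp12 0.59, Zfp746 0.56, Zfp346 0.44, Zfp583 0.44, Zfp503 0.43, Zfp251 0.43, Zfp647 0.40, Zfp846 0.39, Zfp41 0.33, Zfp385a 0.32, Zfp870 0.31, Zfp687 0.30, Zfp768 0.28, Zfp592 0.28, Zfp709 0.23, Zfp386 0.22, Zfp658 0.22, Zfp296 0.19, Zfp326 0.19, Zfp740 0.19, Zfp568 0.18, Zfp760 0.11, Zfp653 0.097, Zfp598 0.072, Zfp608 0.014 and Zfp277 0.0083. At the strongest region Zfp661 was below 0 as well. No paired analysis was possible because there is 1 library per treatment, and no replicate could be left out. Depth is unknown, so differences between members cannot be set against counting error.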
